A study of Saccharomyces cerevisiae with 12 samples.

Results

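The RPD3 S418A strain of Saccharomyces cerevisiae, in which alanine replaces a serine near the end of the histone deacetylase Rpd3, was compared with wild type. By the genotype labels, 3 libraries belonged to RPD3 S418A (replicates 3, 11 and 19) and 3 to wild type (replicates 1, 9 and 17), out of 12 libraries of 4 strains in the series. Both strains carried the S288c label, synthetic defined medium was the growth medium, and cells were harvested at an optical density of 0.4. Per its title, the study made yeast with altered phosphorylation sites, and the comparison asks which messenger RNAs differ when this serine of Rpd3 is exchanged. The shared treatment text also describes 4 h in 20 mM caffeine for some samples, but all 6 libraries carry only the synthetic defined medium label. The design text speaks of triplicates without saying whether they were separate cultures or clones, so the spread between libraries may be technical. The p-values of the main edgeR fit measure that spread over all 12 libraries of the 4 strains, not over these 6 alone.

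Rpd3 removes acetyl groups from histone tails and works inside a large complex, Rpd3L, and a small one, Rpd3S, that share the scaffold Sin3 and the subunit Ume1. Rpd3L is recruited to promoters by DNA-binding proteins such as Ume6 and Ash1 and is known for repressing early meiotic genes and genes of phospholipid synthesis, while Rpd3S acts over transcribed gene bodies. In yeast, Rpd3 is also known to affect silencing near chromosome ends and the response of ribosome biogenesis genes to nutrients. The stretch of RPD3 that holds the altered codon is shown because the whole comparison rests on it. It was read from the RefSeq R64 reference, chrXIV:18010-18087, minus strand, and covers codons 406 to 431 of the 434 codons, stop included, with the altered codon (chrXIV:18049-18051) in capitals. It is the reference allele, since tables of counts do not show the substitution itself.
RPD3, codons 406 to 431: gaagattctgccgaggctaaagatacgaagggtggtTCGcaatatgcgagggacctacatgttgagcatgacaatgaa

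The 6 libraries held between 18.3 and 23.9 M estimated counts, and 6327 of the 6713 targets passed the low-count filter. Levels below are CPM, estimated counts brought to a common library size, and differences are log2 fold changes of S418A over wild type with their SE. Wild type replicate 1 stood apart from the other 2 wild type libraries: the median absolute log2 difference over the tested targets was 0.18 between replicates 1 and 9 and 0.20 between replicates 1 and 17, against 0.09 between replicates 9 and 17. Within S418A the same measure ran from 0.11, between replicates 3 and 11, to 0.19, between replicates 3 and 19. Wild type replicate 9 and S418A replicate 3 were 0.11 apart, so these libraries of different strains differed by less than replicates 1 and 9 of wild type. Targets at least 2-fold apart numbered 199 between wild type replicates 1 and 9, 247 between 1 and 17 and 32 between 9 and 17, and 31 to 69 within S418A. The libraries were of alpha cells by their mating genes: MF(ALPHA)1, the alpha-factor gene, stood at 996, 892 and 905 CPM in wild type replicates 1, 9 and 17 and at 944, 963 and 955 in S418A replicates 3, 11 and 19, while MFA1, the a-factor gene, was between 0.0902 and 0.255 CPM in the 6 libraries. In such bulk samples, fewer cells that express a gene and less RNA per cell cannot be told apart.

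The RPD3 transcript (chromosome XIV, 18001 to 19302) was present in both strains. It stood at 103, 109 and 112 CPM in wild type replicates 1, 9 and 17 and at 113, 115 and 125 CPM in S418A replicates 3, 11 and 19. The S418A libraries lay just above the wild type range, and the difference did not pass the test (log2 0.12 ± 0.06, adjusted p = 0.338 by edgeR, exact permutation p = 0.1, the smallest that 3 against 3 libraries allow). It was 0.09 without wild type replicate 1. The neighbours on the chromosome did not pass either: AAD14, an aryl-alcohol dehydrogenase gene, had log2 0.01 ± 0.10 (adjusted p = 0.947 by edgeR), and PEX6, a peroxisome biogenesis gene, had -0.14 ± 0.07 (adjusted p = 0.326). THI12, a thiamine gene with near copies elsewhere (log2 -0.93, adjusted p = 0.260), and MDJ2, a mitochondrial chaperone gene (log2 -0.12, adjusted p = 0.749), did not pass. Of the Rpd3 complex genes, 0 of 5 core and Rpd3S members, RPD3 among them, and 0 of 9 Rpd3L members were called in either direction by edgeR. Over all tested targets 2.02% were called, so lists this small say little. On a per-length scale, RPD3 was at 68.7 ± 5.79 TPM in wild type and 72.6 ± 2.15 in S418A (SD, n = 3). SIN3 was at 26.3 ± 2.06 and 23.2 ± 3.57 TPM, and UME6, the DNA-binding subunit for meiotic genes, at 16.5 ± 0.59 and 14.2 ± 2.16. EAF3, which recognises methylated histone H3 for Rpd3S, had the highest level of the partners, at 86.7 ± 5.68 and 88.7 ± 10.6 TPM.

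Across the genome the response was small. In all, 128 of 6327 targets were called (2.02%) at an adjusted p under 0.05 by edgeR, of which 52 were higher (0.822%) and 76 lower (1.20%) in S418A. Of these, 27 differed at least 2-fold, 5 of them higher and 22 lower. The unadjusted p was under 0.05 for 1142 targets. In each of the 128 called targets the 3 S418A libraries lay outside the wild type range, as they did in 1158 of all 6327 tested targets (18.3%). The distance between the nearest libraries of the strains was larger than the range within wild type for 77 of the 128 and larger than both ranges for 63, so the spread within a strain was at least as wide as the gap for the other calls.

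Wild type replicate 1 moved the number of calls. Their direction says nothing about that library, since without overlap between the strains leaving it out could hardly reverse a difference. It was nearer to S418A than both other wild type libraries for 54 of the 128 called targets, farther away for 50, and between them for 24. Without it, 123 targets were called higher (1.94% of 6355) and 149 lower (2.34%). Of the original 128 calls, 120 were among them, 49 higher and 71 lower, and 152 were gained, 74 higher and 78 lower. The 8 calls that ended were all of targets for which replicate 1 lay farther from S418A than its 2 companions; among them were HES1, which encodes an oxysterol-binding protein, and the vacuolar genes ATG22 and VPS55. Leaving out other libraries cost more calls: 72 of the 128 were lost without S418A replicate 19, 63 without S418A replicate 11, 63 without wild type replicate 17, 50 without wild type replicate 9 and 23 without S418A replicate 3. Calls kept in all 6 such fits numbered 51, 17 higher and 34 lower. In a fit of these 6 libraries alone, 25 of the 128 were called. That result is given below for some genes only, so its absence does not mean that a gene was called there.

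**Figure D1:**
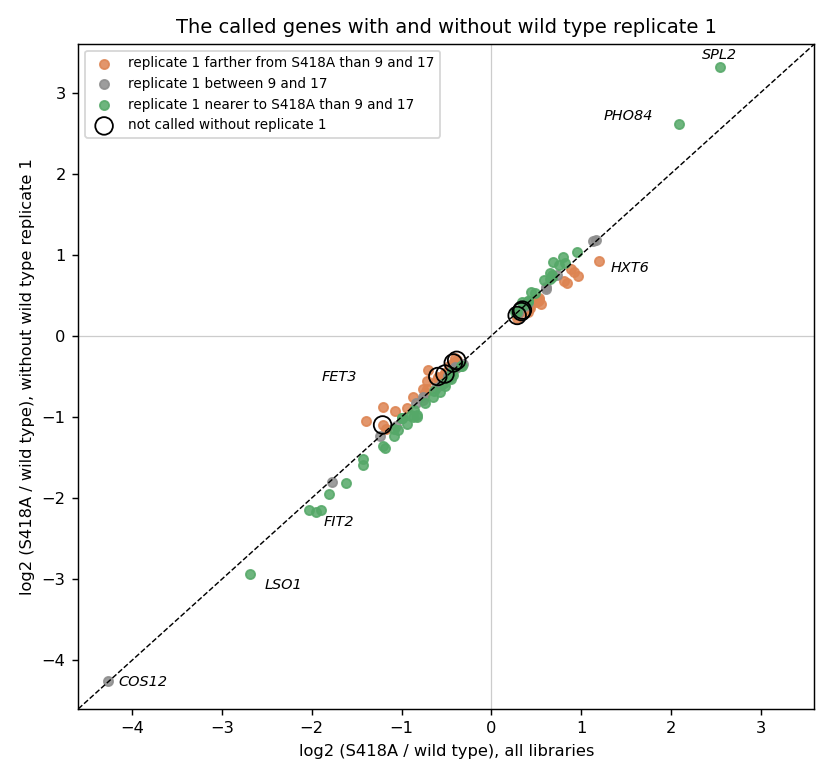
Log2 fold change of each of the 128 called targets from all libraries (x axis) and without wild type replicate 1 (y axis), coloured by where that library lay relative to the other wild type libraries; the dashed line marks equal values. All points keep their sign, which the lack of overlap between the strains made near certain. The 8 circled targets are no longer called. SPL2 and PHO84 move away from 0 without the library, and HXT6 and FET3 move toward it. COS12 and LSO1 rest on a few counts in S418A.

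**Figure D2:**
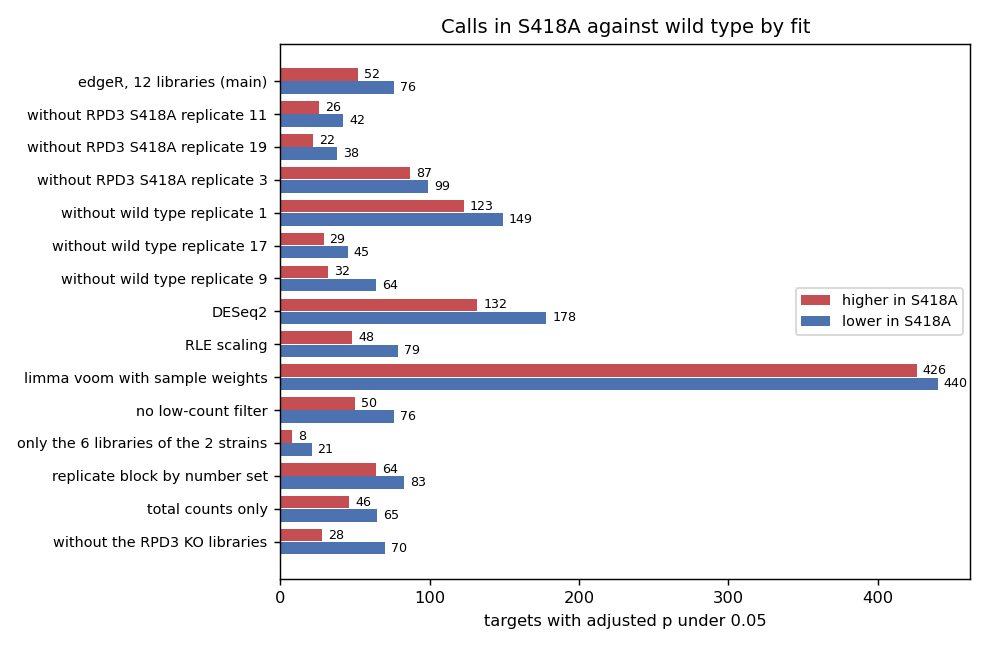
Number of targets with an adjusted p under 0.05, higher (red) and lower (blue) in S418A, for the fit of all 12 libraries and for each alternative. The counts run from 8 higher and 21 lower in the fit of the 6 libraries alone to 426 higher and 440 lower with limma voom and sample weights.

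Several genes of iron uptake fell in S418A. Of 29 tested members of the iron list, 9 were called lower and 0 higher by edgeR, against 1.20% and 0.822% of all tested targets. The median log2 was -0.28 over the list against -0.00 over all tested targets. Without wild type replicate 1 the counts were 12 lower and 0 higher and the median was -0.25. In yeast the factor Aft1 turns on these genes when iron is short, and its core site is TGCACCC. A search of 600 bases upstream of the start codon, on both strands, found these letters in 8 of the 9 called members, all but FRE1, and in 14 of the 20 other tested members, against 158 of 5802 tested genes (2.72%). The motifs here and below were chosen for their known factors after the calls had been seen, and a match is a description of the window. Matches of genes that the results turn on are shown with 16 bases on either side, read from RefSeq R64 on the coding strand, with the match in capitals, written as GGGTGCA where it lies on the other strand.
FIT2, chrXV:1059384-1059422, plus strand, 131 bases before the start codon: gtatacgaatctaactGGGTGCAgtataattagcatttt
FIT3, chrXV:1061217-1061255, minus strand, 184 bases before: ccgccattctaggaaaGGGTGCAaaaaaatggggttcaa
ARN2, chrVIII:10638-10676, minus strand, 447 bases before: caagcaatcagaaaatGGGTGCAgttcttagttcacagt
SIT1, chrV:27453-27491, plus strand, 188 bases before: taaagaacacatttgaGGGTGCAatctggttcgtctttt
TIS11, chrXII:416885-416923, minus strand, 249 bases before: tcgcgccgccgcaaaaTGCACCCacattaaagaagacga

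The mannoproteins of the cell wall that retain iron-siderophores fell most. FIT2 (chromosome XV, 1059531 to 1059992) stood at 46.9, 56.6 and 65.7 CPM in wild type replicates 1, 9 and 17 and at 12.6, 14.6 and 14.3 CPM in S418A replicates 3, 11 and 19. The S418A libraries lay far below the wild type range and close to each other, and the fall passed the edgeR test (log2 -2.03 ± 0.13, adjusted p = 7.43e-06). Wild type replicate 1 was the lowest of its strain, and without it the log2 was -2.14. FIT3, its neighbour on the chromosome (1060441 to 1061055), stood at 52.4, 84.4 and 98.2 CPM against 16.1, 21.9 and 22.9, again without overlap (log2 -1.95 ± 0.21, adjusted p = 0.000631). FIT1, at a lower level, stood at 4.48, 4.82 and 6.12 CPM against 1.80, 2.17 and 1.69 (log2 -1.43 ± 0.16, adjusted p = 0.000575). All 3 kept their call whichever library was left out.

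Transporters that carry iron-siderophores into the cell also fell. ARN2 stood at 51.2, 44.5 and 47.6 CPM in wild type against 25.1, 24.0 and 25.4 in S418A, with tight libraries on both sides (log2 -0.94 ± 0.08, adjusted p = 4.76e-05). ARN1 stood at 50.3, 37.1 and 44.96 CPM against 25.4, 25.8 and 26.5 (log2 -0.77 ± 0.11, adjusted p = 0.00239). SIT1, the ferrioxamine B transporter gene, stood at 48.1, 26.3 and 26.9 CPM against 11.3, 14.6 and 12.6, with wild type replicate 1 well above its companions. Its log2 of -1.39 ± 0.21 (adjusted p = 0.00584) became -1.05 without that library. These 3 genes kept their call in all 6 fits that left out a library. In the fit of the 6 libraries alone, SIT1 was not called (adjusted p = 0.119 by edgeR). ENB1, the enterobactin transporter gene, did not pass (191, 119 and 127 CPM against 83.6, 98.2 and 105, log2 -0.61 ± 0.16, adjusted p = 0.0699).

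In the reductive route, in which iron is reduced, oxidised by a copper enzyme and imported, the wild type libraries spread more. FET3, the multicopper oxidase gene, stood at 456, 226 and 289 CPM in wild type and at 113, 191 and 117 CPM in S418A. The strains did not overlap, but the lowest wild type library lay near the highest S418A library, and wild type replicate 1 stood well above its companions. FET3 passed (log2 -1.20 ± 0.25, adjusted p = 0.0406), with an adjusted p up to 0.157 when a library was left out. It was lost without wild type replicate 17, S418A replicate 3 or S418A replicate 19. The fit of the 6 libraries alone did not call FET3 (adjusted p = 0.301 by edgeR). FTR1, its permease partner, did not pass with all libraries (118, 65.8 and 77.1 CPM against 44.7, 57.4 and 58.1, log2 -0.70 ± 0.18, adjusted p = 0.0695) and did without wild type replicate 1 (log2 -0.42, adjusted p = 0.0374). FRE1, a ferric reductase gene, fell slightly (67.2, 62.5 and 64.3 CPM against 54.3, 41.2 and 49.9, log2 -0.42 ± 0.09, adjusted p = 0.0303) and was lost in 4 of the 6 fits. TIS11, which encodes an RNA-binding protein that speeds the decay of messages for iron-using proteins, fell from 25.4, 22.9 and 25.2 CPM to 8.30, 12.5 and 11.8 (log2 -1.18 ± 0.12, adjusted p = 0.000331), whichever library was left out. The regulator genes AFT1 (log2 -0.22 ± 0.08, adjusted p = 0.166) and AFT2 (log2 -0.06 ± 0.08, adjusted p = 0.701) did not pass.

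LSO1, a short reading frame known to respond to iron shortage, was not on the list and was singled out after its values had been seen. It stood at 0.785, 1.32 and 1.79 CPM in wild type and at 0.135, 0.185 and 0.282 in S418A (adjusted p = 0.00267 by edgeR), where 3 counts stand for 0.135 to 0.169 CPM, so its size is poorly set.

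**Figure D3:**
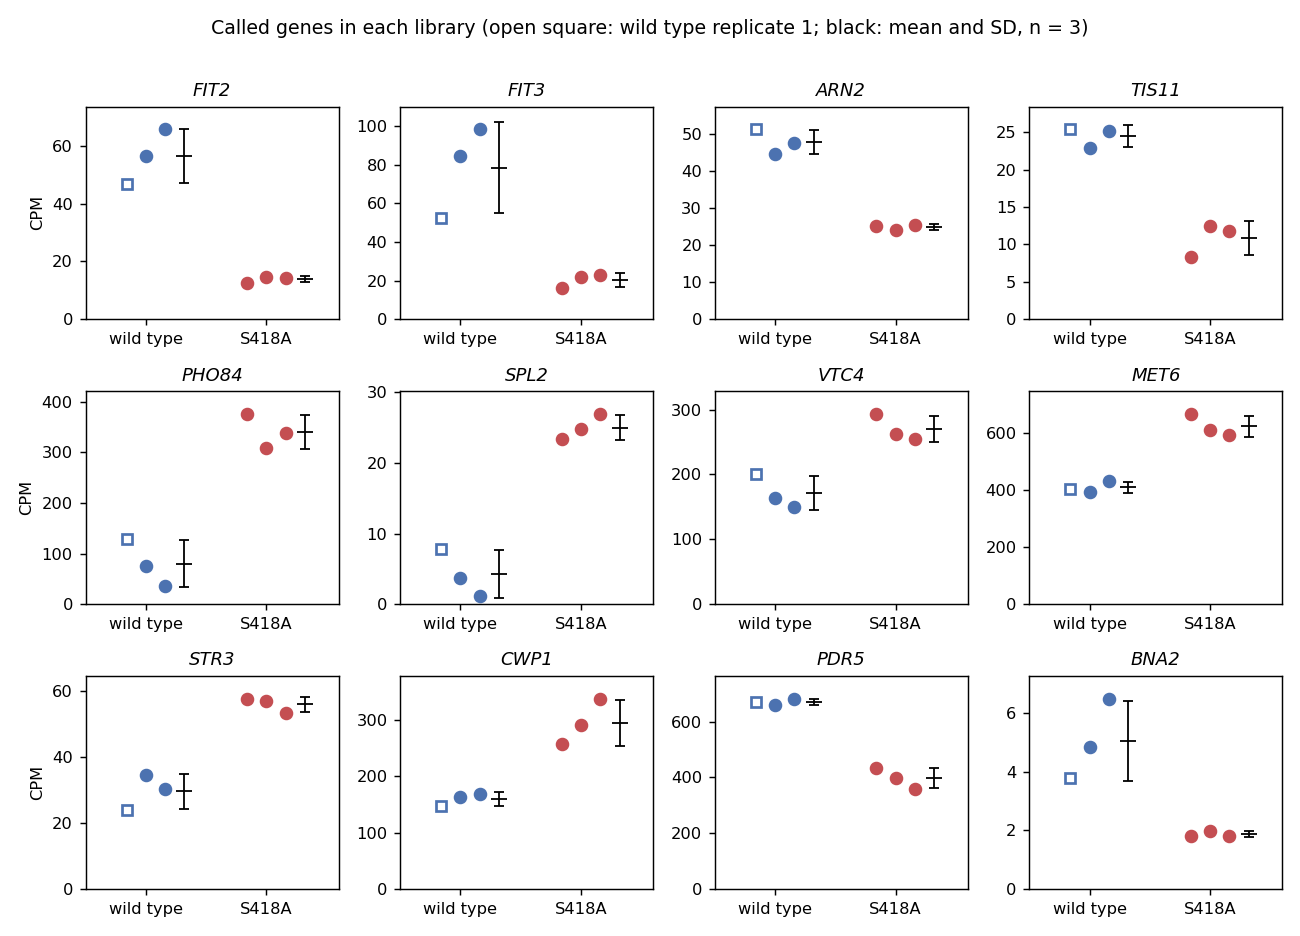
CPM of 12 called genes in each library (y axis, from 0), wild type in blue and S418A in red, with wild type replicate 1 as an open square and the mean and SD (n = 3) in black. The strains do not overlap in any panel, and wild type replicate 1 is the wild type library nearest to S418A for FIT2, FIT3, PHO84, SPL2, VTC4 and BNA2 and the farthest for ARN2, TIS11, STR3 and CWP1.

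Some genes of phosphate supply rose, with wide spread among the wild type libraries for several of them. Of 26 tested members, 7 were called higher and 0 lower by edgeR, against 0.822% and 1.20% of all tested targets. The list had 8 of the 26 below 0 and a median log2 of 0.15. Without wild type replicate 1 the counts were 11 higher and 0 lower and the median 0.17. Pho4 is the factor that turns on these genes when phosphate is short, and its core site CACGTG, which reads the same on both strands and is also bound by Cbf1 at sulfur genes, was found in the 600-base window of all 7 called members, of 11 of the other 19, and of 423 of 5802 tested genes (7.29%). Matches of PHO84, SPL2 and VTC4 are shown, the last with a further match 12 bases away inside the same stretch.
PHO84, chrXIII:26193-26230, minus strand, 414 bases before the start codon: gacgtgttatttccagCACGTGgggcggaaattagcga
SPL2, chrVIII:375226-375263, minus strand, 147 bases before: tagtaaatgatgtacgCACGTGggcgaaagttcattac
VTC4, chrX:413503-413540, minus strand, 125 bases before: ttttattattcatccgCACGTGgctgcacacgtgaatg

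PHO84, the high-affinity phosphate transporter gene (chromosome XIII, 24037 to 25800), stood at 129, 74.4 and 36.2 CPM in wild type replicates 1, 9 and 17 and at 376, 308 and 339 CPM in S418A replicates 3, 11 and 19. The S418A libraries all lay more than 2-fold above the highest wild type library, while wild type itself spread over 1.82 on the log2 scale. PHO84 passed (log2 2.09 ± 0.35, adjusted p = 0.0174 by edgeR), with a log2 of 2.62 without wild type replicate 1, and missed the threshold without wild type replicate 9 or S418A replicate 19 (adjusted p up to 0.0591). SPL2, which encodes an inhibitor of low-affinity phosphate uptake, had the largest rise among called genes with a mean of at least 10 CPM: 7.85, 3.71 and 1.17 CPM in wild type against 23.4, 24.8 and 26.9 in S418A (log2 2.55 ± 0.46, adjusted p = 0.0200). Its wild type libraries differed more among themselves than those of PHO84, over 2.32 on the log2 scale, and its call was lost without wild type replicate 9, S418A replicate 11 or S418A replicate 19 (adjusted p up to 0.0742); without wild type replicate 1 its log2 was 3.32. For both genes replicate 1 was the wild type library nearest to S418A. Neither was called in the fit of the 6 libraries alone (adjusted p = 0.202 for PHO84 and 0.208 for SPL2 by edgeR).

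Subunits of the vacuolar polyphosphate polymerase rose by less and more evenly. VTC4, the catalytic subunit gene, stood at 201, 164 and 150.1 CPM in wild type and at 293, 262 and 255 in S418A (log2 0.65 ± 0.10, adjusted p = 0.00357). VTC3 stood at 118, 92.1 and 77.5 CPM against 185, 166 and 149 (log2 0.80 ± 0.13, adjusted p = 0.00536). Both kept their call in all 6 fits that left out a library. Neither was called in the fit of the 6 libraries alone (adjusted p = 0.115 for VTC4 and 0.124 for VTC3 by edgeR). VTC1 rose as well (181, 125 and 117 CPM against 222, 226 and 235, log2 0.69 ± 0.13, adjusted p = 0.0190) but was called in 2 of the 6. PHO8, the vacuolar alkaline phosphatase gene, rose by little with very tight libraries (153, 149 and 152 CPM against 184, 190.1 and 182, log2 0.29 ± 0.06, adjusted p = 0.0177), and PHM6, at about 1 CPM in wild type, completed the 7 (log2 1.13 ± 0.24, adjusted p = 0.0305). The secreted acid phosphatase genes show what wild type replicate 1 decides. PHO5 stood at 107, 43.4 and 36.7 CPM in wild type against 119, 97.1 and 94.0 in S418A, so that replicate 1 lay inside the S418A range. It did not pass with all libraries (log2 0.73 ± 0.33, adjusted p = 0.283) and passed without that library (log2 1.36, adjusted p = 1.18e-05). PHO12, which shares 91.6% of its words with other genes, its close copy PHO11 among them, behaved alike in its values (138, 31.5 and 18.7 CPM against 132, 108 and 92.5, log2 0.82 ± 0.58, adjusted p = 0.478, and 2.13 without replicate 1, adjusted p = 0.000313). The transcript of the regulator PHO4 did not pass (log2 -0.07 ± 0.25, adjusted p = 0.895).

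Some genes of methionine and sulfur metabolism rose. Of 31 tested members, 7 were called higher and 0 lower by edgeR, against 0.822% and 1.20% of all tested targets. The median log2 was 0.17. Without wild type replicate 1 the counts were 7 higher and 1 lower with the same median of 0.17. MET6, the methionine synthase gene (chromosome V, 339864 to 342167), stood at 402, 392 and 431 CPM in wild type and at 665, 609.9 and 593 in S418A, with narrow ranges in both strains (log2 0.61 ± 0.07, adjusted p = 0.000612). SAM2, an S-adenosylmethionine synthetase gene, stood at 256, 289.5 and 298 CPM against 416, 402 and 399 (log2 0.53 ± 0.07, adjusted p = 0.00210). STR3, the cystathionine beta-lyase gene, stood at 24.1, 34.6 and 30.2 CPM against 57.6, 57.1 and 53.3 (log2 0.92 ± 0.10, adjusted p = 0.000575). Wild type replicate 1 lay farthest from S418A for SAM2 and STR3, whose log2 became 0.47 and 0.79 without it, and all 3 genes kept their call whichever library was left out. In the fit of the 6 libraries alone, SAM2 was not called (adjusted p = 0.084 by edgeR).

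Among the called members were genes for the uptake and use of S-methylmethionine and S-adenosylmethionine. SAM3, the S-adenosylmethionine permease gene, stood at 102, 85.6 and 82.0 CPM in wild type and 153, 129 and 123 in S418A (log2 0.59 ± 0.10, adjusted p = 0.00685). MHT1, a methyltransferase gene that makes methionine from S-methylmethionine, and MMP1, the permease gene for that compound, are neighbours on chromosome XII (16639 to 17613 and 17956 to 19707). MHT1 stood at 15.9, 20.9 and 22.5 CPM against 31.04, 34.0 and 38.8 (log2 0.81 ± 0.13, adjusted p = 0.00507). MMP1 stood at 33.7, 60.6 and 60.2 CPM against 96.2, 96.3 and 109.9 (log2 0.97 ± 0.18, adjusted p = 0.0209), with wild type replicate 1 well below its companions, and its log2 was 0.74 without it. MMP1 lost its call without S418A replicate 11 or 19. Neither MHT1 (adjusted p = 0.096 by edgeR) nor MMP1 (0.202) was called in the fit of the 6 libraries alone. MXR1, the methionine sulfoxide reductase gene and no member of the list, rose whichever library was left out (46.5, 40.7 and 38.9 CPM against 70.0, 71.5 and 80.6, log2 0.82 ± 0.09, adjusted p = 0.000612). Of the sulfate assimilation genes, MET16 rose (18.7, 17.9 and 18.2 CPM against 21.3, 24.6 and 27.2, log2 0.41 ± 0.09, adjusted p = 0.0343) but was called in 2 of the 6 fits that left out a library, while MET3 (log2 0.15 ± 0.07, adjusted p = 0.280) and MET10 (log2 0.31 ± 0.08, adjusted p = 0.0699) did not pass. The letters CACGTG lay upstream of 3 of the 7 called members, MET6, MET16 and SAM2, and of 18 of the 24 others.

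**Figure D4:**
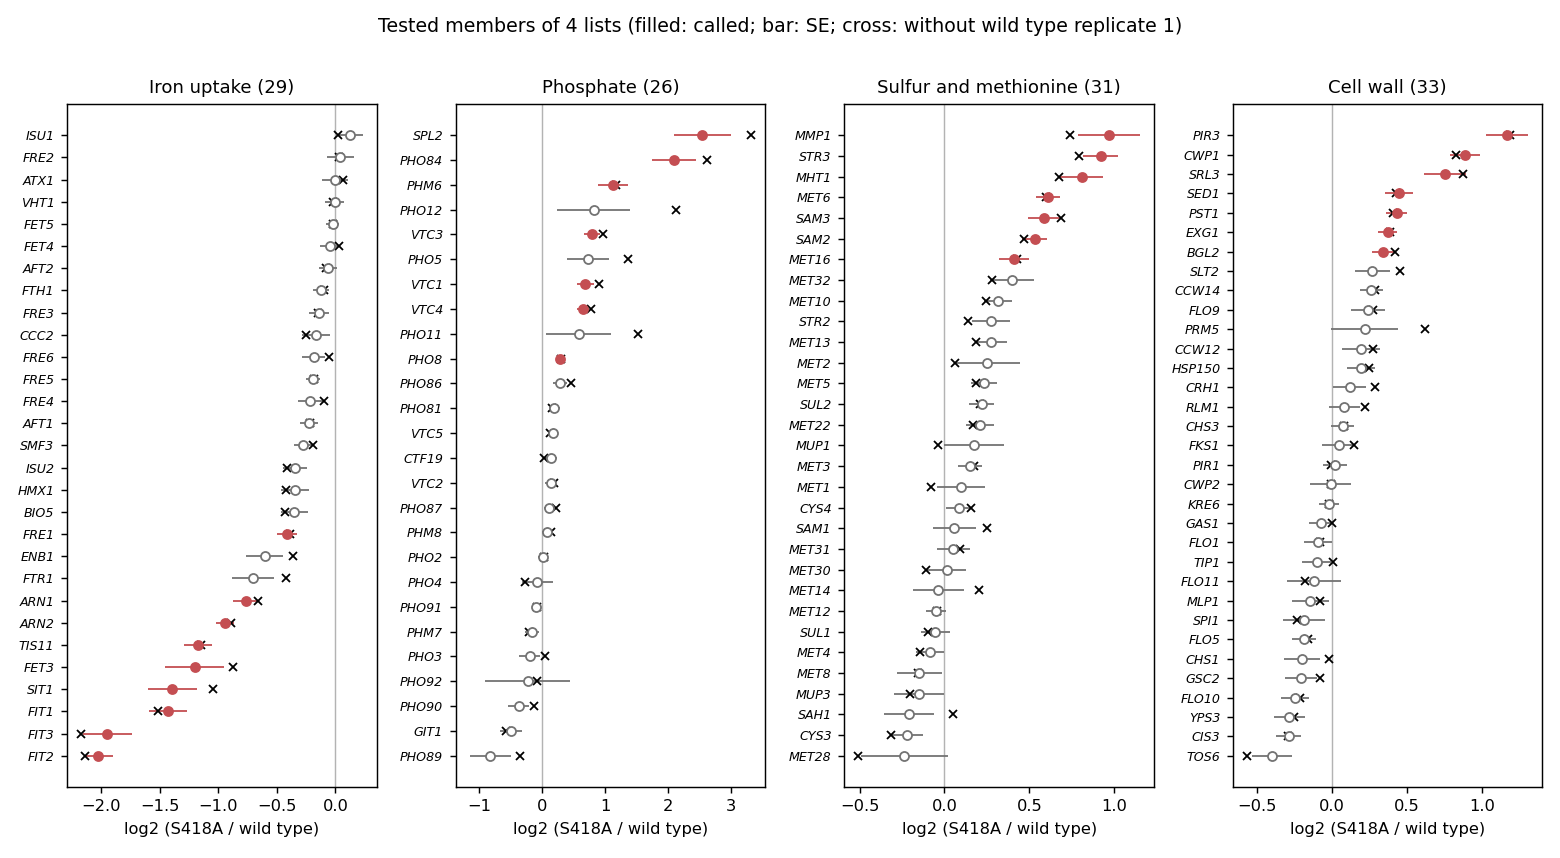
Log2 fold change of S418A over wild type (x axis, own scale in each panel) for every tested member of the iron, phosphate, sulfur and cell wall lists, ordered by value; filled red points are called, bars are the SE, and crosses are the values without wild type replicate 1. The 9 called iron genes all lie below 0, the 7 called members of each other list lie above 0, and PHO11 and PHO12 shift by the most among the phosphate genes.

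Several cell wall genes rose. Of 33 tested members, 7 were called higher and 0 lower by edgeR, against 0.822% and 1.20% of all tested targets. The median of the list was 0.04, so the change belonged to some members and not to the list as a whole. Without wild type replicate 1, 11 were higher and 1 lower. CWP1, a wall mannoprotein gene, stood at 146, 164 and 169 CPM in wild type and at 257, 290.3 and 337 in S418A (log2 0.88 ± 0.10, adjusted p = 0.000612). PIR3, which encodes a wall protein cross-linked to glucan, stood at 9.84, 10.0 and 8.83 CPM against 17.1, 21.2 and 26.4 (log2 1.17 ± 0.14, adjusted p = 0.000712), and shares 11.2% of its 31-base words with other genes. PST1, a wall protein gene induced by wall damage, stood at 236, 252 and 245 CPM against 307, 327 and 353 (log2 0.43 ± 0.07, adjusted p = 0.00616). PST1 was not called in the fit of the 6 libraries alone (adjusted p = 0.148 by edgeR). EXG1, a glucanase gene, rose by log2 0.37 ± 0.06 (adjusted p = 0.00812), and these 4 kept their call in all 6 fits. SED1 (log2 0.45 ± 0.09, adjusted p = 0.0268), SRL3 (0.75 ± 0.14, adjusted p = 0.0175) and BGL2 (0.34 ± 0.07, adjusted p = 0.0405) did so in 1 or 2 of the 6.

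Genes of wall signalling followed in part. KDX1, which encodes a protein kinase of the wall integrity pathway, stood at 15.8, 15.3 and 11.1 CPM in wild type and 28.7, 26.2 and 26.8 in S418A (log2 0.95 ± 0.12, adjusted p = 0.000921). SLT2, the kinase gene of the pathway, stood at 247, 182 and 168 CPM against 224, 238 and 257, with wild type replicate 1 inside the S418A range; it did not pass (log2 0.27 ± 0.12, adjusted p = 0.254) and passed without that library (log2 0.45, adjusted p = 0.00247). The pathway target PRM5 moved in the same way between fits, from log2 0.22 (adjusted p = 0.632) to 0.62 (adjusted p = 0.000433).

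Some pheromone response genes fell in S418A, although no pheromone treatment is named in the labels. Of 20 tested members, 4 were called lower and 0 higher by edgeR, against 1.20% and 0.822% of all tested targets. The median log2 was -0.36. Without wild type replicate 1 the counts were 7 lower and 0 higher with a median of -0.49. AGA1, which encodes the anchor subunit of a-agglutinin, stood at 91.4, 62.9 and 75.1 CPM in wild type and at 40.2, 36.6 and 32.2 in S418A (log2 -1.07 ± 0.14, adjusted p = 0.00154), and was called whichever library was left out. FIG2, an adhesin gene for mating cells, stood at 30.7, 25.4 and 27.7 CPM against 19.8, 19.7 and 15.98 (log2 -0.59 ± 0.11, adjusted p = 0.0123). It missed the threshold in 1 fit, without S418A replicate 19 (adjusted p = 0.0538). PRM4 (log2 -0.62 ± 0.12, adjusted p = 0.0199) and PRM1, which acts in membrane fusion (log2 -0.52 ± 0.11, adjusted p = 0.0272), were called in 4 and 1 of the 6 fits. FUS1, a cell fusion gene, stood at 29.4, 46.0 and 62.0 CPM against 28.4, 27.7 and 30.7, so that wild type replicate 1 lay within the S418A range. It passed by edgeR without that library (log2 -0.90, adjusted p = 0.000279) and not with it (-0.66, adjusted p = 0.122). DESeq2 (adjusted p = 0.0292) and limma voom (0.000278) called FUS1 with all libraries. The voom fit, however, gave wild type replicate 1 a sample weight of 0.126, against 1.99 and 0.97 for replicates 9 and 17. Of the 5 alpha-specific genes 0 were called, and SAG1, the alpha-agglutinin gene, came nearest (1110.1, 761 and 690.3 CPM against 580.2, 559.9 and 462, log2 -0.68 ± 0.16, adjusted p = 0.0509).

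Among drug transport genes, the pump genes PDR5 and PDR15 and the regulator gene PDR3 fell. Of 22 tested members of the drug transport list, 3 were called lower and 0 higher by edgeR, with and without wild type replicate 1. Over all tested targets, 1.20% were called lower and 0.822% higher with all libraries. The list had a median log2 of -0.14. PDR5, the main drug efflux pump gene (chromosome XV, 619840 to 624375), stood at 673, 659 and 682 CPM in wild type replicates 1, 9 and 17 and at 433, 399 and 360.1 CPM in S418A replicates 3, 11 and 19. Its wild type libraries agreed to within 0.05 on the log2 scale, and the S418A libraries spread over 0.27 below them. The fall passed (log2 -0.76 ± 0.08, adjusted p = 0.000235) and did so whichever library was left out. PDR15, a paralogous pump gene, fell from 76.9, 99.3 and 102.7 CPM to 63.98, 60.7 and 62.8 (log2 -0.57 ± 0.12, adjusted p = 0.0245), and PDR3, a regulator gene of the same family of genes, from 46.1, 51.2 and 48.5 CPM to 40.2, 38.7 and 36.7 (log2 -0.33 ± 0.08, adjusted p = 0.0436). These last calls held in 2 of the 6 fits that left out a library. TCCGTGGA, 1 form of the Pdr1 site, was searched on either strand. It lay in the 600-base window of PDR5, of 4 of the 19 members not called, and of 76 of 5802 tested genes (1.31%). Other forms were not searched, so the count does not show that PDR15 or PDR3 lacks a site. Of the matches of PDR5, 1 is shown.
PDR5, chrXV:619449-619488, plus strand, 375 bases before the start codon: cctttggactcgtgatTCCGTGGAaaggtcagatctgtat

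Genes that make NAD from tryptophan or import its precursors formed a further group, drawn up after the calls had been seen. Of 13 tested members, 5 were called lower and 1 higher by edgeR, against 1.20% and 0.822% of all tested targets. BNA2, the gene of the dioxygenase that opens the pathway from tryptophan, stood at 3.79, 4.86 and 6.48 CPM in wild type and 1.80, 1.99 and 1.81 in S418A (log2 -1.43 ± 0.22, adjusted p = 0.00536). BNA5, the kynureninase gene, stood at 55.6, 67.1 and 72.2 CPM against 38.2, 39.3 and 47.1 (log2 -0.65 ± 0.10, adjusted p = 0.00507). The importer genes TNA1, for nicotinic acid (293, 302 and 297 CPM against 238, 199.5 and 222, log2 -0.43 ± 0.07, adjusted p = 0.00869), and NRT1, for nicotinamide riboside (43.0, 46.0 and 50.4 CPM against 34.9, 34.0 and 31.6, log2 -0.47 ± 0.07, adjusted p = 0.00507), were lower in all 3 S418A libraries. These 4 kept their call in the 6 fits that left out a library, and were not called in the fit of the 6 libraries alone (adjusted p from 0.0701 to 0.142 by edgeR). Wild type replicate 1 was the wild type library nearest to S418A for all 4. BNA4 (log2 -0.48 ± 0.11, adjusted p = 0.0431) was called in 1 of the 6 fits, and BNA3, the gene of an aminotransferase, was the member that rose (log2 0.55 ± 0.12, adjusted p = 0.0303).

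Other calls were spread over single genes. TIR1, a wall mannoprotein gene of the anaerobic and cold-shock family, stood at 72.4, 79.6 and 71.3 CPM in wild type and at 23.6, 25.3 and 15.98 in S418A, and had the third largest fall among called genes with a mean of at least 10 CPM (log2 -1.78 ± 0.13, adjusted p = 2.74e-05). Of the 19 tested DAN, TIR and hypoxic genes, DAN1 was the other that fell, at 0.463 to 1.04 CPM in S418A. Among metabolic genes, GPD2, a glycerol 3-phosphate dehydrogenase gene, fell (log2 -0.49 ± 0.08, adjusted p = 0.00812), as did DAL1, the allantoinase gene (log2 -1.21 ± 0.17, adjusted p = 0.00274). GLC3, the glycogen branching enzyme gene, rose from 209, 201 and 173 CPM to 312, 290.6 and 314 (log2 0.65 ± 0.09, adjusted p = 0.00199), and TIR1, GPD2, DAL1 and GLC3 kept their call whichever library was left out. GPD2 (adjusted p = 0.14 by edgeR) and DAL1 (0.0618) were not called in the fit of the 6 libraries alone. AGP1, an amino acid permease gene, stood at 95.4, 165 and 145 CPM against 282, 236 and 212 (log2 0.85 ± 0.17, adjusted p = 0.0237) and was lost without S418A replicate 3 or 11 or wild type replicate 17. HXT6, a high-affinity hexose transporter gene with 95.7% of its words shared with other genes, stood at 204, 477 and 398 CPM against 841, 721 and 919.6 (log2 1.20 ± 0.26, adjusted p = 0.0425, and 0.92 without wild type replicate 1). HXT6 lost its call without S418A replicate 3, 11 or 19 or wild type replicate 17 (adjusted p up to 0.146 by edgeR). Neither HXT6 (adjusted p = 0.264 by edgeR) nor AGP1 (0.234) was called in the fit of the 6 libraries alone.

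Genes near chromosome ends made up a larger share of the falls than of all tested genes. Of 72 lower calls with a position in the R64 reference, 21 lay within 20 kb of an end (29.2%), against 2 of 49 higher calls (4.08%) and 214 of 5817 tested genes (3.68%). Reads there often fit several copies: 28 of the 128 calls, 24 of them lower, share over 5% of their 31-base words with other genes. With those left out, 7 of 48 lower calls (14.6%) and 97 of 5377 tested genes lay within 20 kb. The 7 were COS12, RDS1, YER188W, ARN2, YGL258W-A, YOL163W and ARN1, so the siderophore transporters ARN1 and ARN2 belong to them too. RDS1, a drug-sensitivity regulator gene 3.16 kb from an end of chromosome III, stood at 11.7, 13.05 and 12.6 CPM in wild type and 6.05, 7.45 and 7.0 in S418A (log2 -0.87 ± 0.11, adjusted p = 0.00154). COS12, a gene of the COS family 2.79 kb from an end of chromosome VII, stood at 2.72, 3.03 and 2.14 CPM against 0.0451, 0.0463 and 0.339, and passed (adjusted p = 0.000706 by edgeR) whichever library was left out. Its level in S418A is that of a few counts, so its size is poorly set, and of the 12 tested COS genes COS12 and COS1 were called, both lower; COS1 shares 84.9% of its words with other genes.

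The helicase genes of the subtelomeric Y' elements fell, as far as their near-identical copies can be counted. On a list drawn up after the calls had been seen, 6 of 7 tested copies were called lower by edgeR, with a median log2 of -0.97. Without wild type replicate 1, 6 were called lower and the median was -1.01. YRF1-1, YRF1-5 and YRF1-8 share all their words and carry the same values, 305, 309 and 322 CPM in wild type and 158, 161 and 151 in S418A (log2 -0.99 ± 0.08, adjusted p = 2.74e-05), so they count as 1 measurement. Reading frames of Ty retrotransposons, again copies of each other, gave 9 lower calls and 0 higher among 62 tested frames. Over all tested targets, 1.20% were called lower and 0.822% higher with all libraries. Without wild type replicate 1, the Ty frames gave 7 lower and 1 higher, and their median log2 went from -0.33 to -0.24. Their median deviations from the wild type mean were -0.21, -0.23 and -0.56 in S418A replicates 3, 11 and 19.

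**Figure D5:**
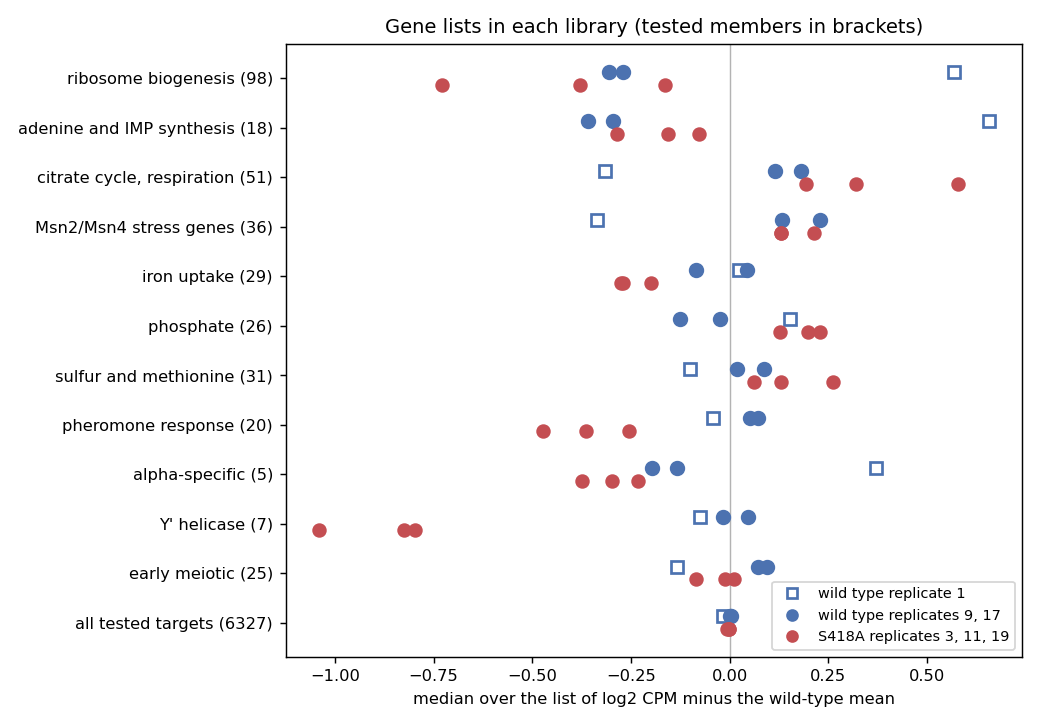
For 12 gene groups, the median over tested members of log2 CPM minus the wild type mean (x axis) in each library, wild type above (blue, replicate 1 as an open square) and S418A below (red). Wild type replicate 1 stands alone for ribosome biogenesis, adenine synthesis, respiration and Msn2/Msn4 genes. For iron, pheromone and Y' helicase genes all wild type libraries lie above all S418A libraries, and for respiration all lie below them.

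In some large lists wild type replicate 1 stood apart from its companions and moved the median. The ribosome biogenesis list had a median log2 of -0.45 over 98 tested members with 97 below 0, yet 1 was called by edgeR, BUD22, and lower. Its median deviation from the wild type mean was 0.57 in wild type replicate 1, -0.27 and -0.31 in replicates 9 and 17, and -0.16, -0.38 and -0.73 in S418A replicates 3, 11 and 19. The wild type replicates 9 and 17 thus lay inside the S418A range, and without replicate 1 the median log2 was -0.14. Respiration and citrate cycle genes had a median log2 of 0.35 over 51 members with 2 called higher, CYB2 and COX8, and a median of 0.20 without replicate 1, when 5 were called. Their library medians were -0.32, 0.12 and 0.18 in wild type and 0.19, 0.32 and 0.58 in S418A, so the strains did not overlap. For adenine and IMP synthesis the median changed sign, from -0.26 to 0.13, with 0 of 18 members called with all libraries and 3 called higher without replicate 1. The 36 Msn2 and Msn4 stress targets went from a median of 0.11 to -0.02.

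For iron uptake the corresponding library medians were 0.02, -0.09 and 0.04 in wild type and -0.27, -0.20 and -0.27 in S418A, and for pheromone response -0.04, 0.05 and 0.07 against -0.25, -0.47 and -0.36. For phosphate, wild type replicate 1 at 0.15 lay within the S418A values of 0.23, 0.20 and 0.13. For sulfur and methionine, wild type replicate 17 at 0.09 lay within the S418A values of 0.06, 0.13 and 0.26.

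Early meiotic and phospholipid synthesis genes, which Rpd3L is known to repress, had no calls, nor did the other lists named here. For lists of this size that is near the 2.02% called over all tested targets and says little about them. Of the 25 tested early meiotic genes 0 were called by edgeR, with a median log2 of -0.00. The 2 with the smallest p went opposite ways. REC8 stood at 1.85, 2.73 and 3.16 CPM in wild type and 1.44, 1.67 and 1.98 in S418A (log2 -0.61 ± 0.24, adjusted p = 0.213). IME2 stood at 15.9, 16.6 and 17.1 CPM against 19.7, 17.8 and 21.1 (log2 0.24 ± 0.09, adjusted p = 0.214). None of the 21 tested genes of inositol and phospholipid synthesis was called, nor of the 26 Hsf1 chaperone genes, the 17 histone genes, the 18 other deacetylase genes or the 139 ribosomal protein genes. A missed threshold does not show that these genes were equal in the strains. Without wild type replicate 1, the counts for these 6 lists were 0, 1, 0, 3, 0 and 4, all higher.

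In the authors' deposited table of the same strains, 26 targets were higher and 77 lower at an adjusted p under 0.05. Of these 103, 73 were also called by edgeR here, which is 70.9% of the authors' calls and 57.0% of the 128, and all 73 had the same direction. Among the genes called here but not there were MET6 (adjusted p = 0.135 in the authors' table, DESeq2 per the processing notes), STR3 (0.202), GLC3 (0.456) and HXT6 (0.639). For RPD3 KO, the strain without the gene, measured against the same 3 wild type libraries, the log2 values of the leading genes were 2.19 for FIT2, 2.84 for FIT3, 3.35 for SIT1, -1.05 for PHO84, -0.89 for SPL2, -1.67 for CWP1, 0.82 for PDR5 and -1.17 for AGA1. In S418A the same genes had -2.03, -1.95, -1.39, 2.09, 2.55, 0.88, -0.76 and -1.07. These genes are a selection, and the others among the 12 largest rises and 12 largest falls went either way. TIR1 (-1.08 in RPD3 KO), PIR3 (0.69), AGP1 (0.60), YFL066C (-3.22), MXR1 (0.23) and KDX1 (0.05) had the same sign as in S418A. FET3 (1.65), MMP1 (-1.39), HXT6 (-4.92), MHT1 (-1.91), TIS11 (1.64), ARN2 (1.08), STR3 (-0.49), VTC3 (-0.30) and the 3 YRF1 copies (0.15) had the opposite sign. SPL2, KDX1 and the YRF1 copies did not pass in RPD3 KO (adjusted p = 0.142, 0.744 and 0.0959 by edgeR). Since the comparisons share their control libraries, the values are set side by side only.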

How the data were processed

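RNA sequencing libraries numbered 12, of which 3 RPD3 S418A and 3 wild type libraries are compared. Stranded libraries were made from 600 ng of total RNA, per the labels' protocols. The submitters' processing notes name Trimmomatic 0.36, kallisto 0.44.0 and the R64 build; no strand setting for kallisto is given in the sources used here. Per the file headers, the deposited files hold an estimated count and a TPM per target, for 6713 targets. The authors' deposited comparison table gives log2 fold changes with their errors and adjusted p-values, per the file headers; the processing notes name DESeq2. 

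Rounded estimated counts were tested in R 4.3.3 with edgeR 4.0.16: TMM scaling, the default low-count filter, and 1 robust quasi-likelihood fit over 12 libraries, so that the spread of all 4 strains enters each test. Calls are at a Benjamini-Hochberg adjusted p under 0.05 over the 6327 tested targets. Alternatives were RLE scaling, total counts only, no filter, DESeq2 1.42.0, limma 3.58.1 voom with sample weights, the 6 libraries alone, each library left out, and, chosen after seeing the data, no RPD3 KO libraries and a block for sets of replicate numbers. RPD3 was also tested by an exact permutation test, two-sided. The method was tested on simulated data.

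Genes named were RPD3 and its 4 nearest neighbours, the 12 largest rises and falls, and up to 3 called members of each of 52 lists (2 where none was called). The largest rises and falls had a mean of at least 10 CPM, no overlap, and the same sign without wild type replicate 1. Further list members and genes, such as PHO5, FUS1, SLT2, MET10 and LSO1, were chosen after their values were seen. The members, lists and tests were chosen with earlier results of these data known, and 3 lists were added after the calls. Sequences and positions came from RefSeq R64, which matched 6026 targets. Copies were gauged by 31-base words shared with other genes of that reference; the 687 unmatched targets were not searched. Total counts of the 6 libraries limit precision only for the lowest genes, for which intervals and floors would cover counting error alone.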

Additional observations from a re-analysis of the deposited data

How the results depend on the processing

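With DESeq2, 132 genes were called higher and 178 lower, and with limma voom 426 and 440. The voom fit gave wild type replicate 1 the lowest sample weight of all libraries, 0.126. In the fit of 6 libraries alone 8 were higher and 21 lower, and without the RPD3 KO libraries 28 and 70. Leaving out each library gave 22 to 123 higher and 38 to 149 lower. RLE scaling (48 higher, 79 lower), total counts only (46, 65) and no low-count filter (50, 76) stayed within 1.5 times. Of the 46 named called genes none reversed under these alternatives; calls were lost for 28 in the fit of 6 libraries, 18 without S418A replicate 19, 13 without S418A replicate 11, 11 without wild type replicate 17, 9 without wild type replicate 9, 6 without the RPD3 KO libraries, 5 without S418A replicate 3, 3 with total counts only, 1 with voom and 0 without wild type replicate 1. Since the strains did not overlap in any called target, leaving out a library could hardly reverse a named gene. The cause of the lost calls was not tested. The RPD3 difference ran from log2 0.08 to 0.15 and was called under none of these. The strains share no replicate number, but the numbers run in sets across strains (1 with 3, 9 with 11, 17 with 19), whose meaning the labels do not give. The deviations from the strain means correlated across genes at 0.252, -0.1 and 0.265 within these sets, and at -0.301 to 0.197 between libraries of different sets. The main fit did not take the sets as pairs, and these values do not decide whether they are. A fit with them as a replicate block, chosen after seeing the data, called 64 genes higher and 83 lower and left RPD3 at log2 0.12 (adjusted p = 0.315 by edgeR); SPL2, HXT6, FET3 and PDR3 were not called in it. Genes near 3 counts per library (0.128 to 0.169 CPM) have poorly set sizes.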
